A study of Mus musculus with 9 samples.

Results

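Genes of sequence-specific transcription factor families were examined for changes in chromatin accessibility in C2C12 myotubes. C2C12 is a mouse myoblast line whose cells fuse into multinucleate myotubes in low serum. Members were all genes in the authors' lists of regions whose symbol carries a family name, among them Zfp, Zbtb, Fox, Hox, Sox, Tbx, Klf, Nfi, Mef2, Smad, Irf and the nuclear receptors, with Klf2, Klf4 and Nr4a1 left out. This gave 38 of the 1052 genes named in any list, and 43 of the 1832 listed regions. ATAC-seq, which reads out where a transposase can insert into open DNA, had been run on 9 libraries: 3 of untreated myotubes, 3 after 3 h and 3 after 24 h in 10 mM ammonium acetate, a source of ammonia. The myotubes had been differentiated in horse serum medium before treatment. There was no arm with acetate alone and no untreated arm labelled with its own time, so ammonium, acetate and time in culture cannot be told apart. All libraries come from 1 cell line, and the labels call the libraries of a group biological replicates.

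The files hold the authors' edgeR results for 3 pairs of groups and no value per library, so levels in single libraries and their depth are unknown here. Of 146047 regions tested, 0.403% (588) are listed for 3 h against untreated, 0.103% (150) for 24 h against untreated and 0.86% (1256) for 24 h against 3 h. The 3 h list and the list of 24 h against 3 h were limited to a raw p under 0.005 with a change of 1.5-fold or more, whereas the list of 24 h against untreated holds those with an adjusted p below 0.05, so their lengths cannot be compared. In the 3 h list 0.000685% of tested regions (1 region, not at a member) had an adjusted p below 0.05, and in 24 h against 3 h it was 0%. Accordingly, a region is said to have risen or fallen only in the comparison of 24 h with untreated, and other values are given as listed. Errors are approximate standard errors (SE) of the log2 fold change, computed from the F statistic in the authors' deposited table. Each fold change compares 3 libraries with 3. The 21.5 degrees of freedom that F and p imply are more than 3 against 3 libraries give, so the SE draws on more than these. The SE ranged from 0.16 to 0.49 over the members. Because regions were listed by the p of that same F, every 95% interval built from it excludes 0. Sizes of change in such lists may also be overestimated. The comparisons share libraries in pairs. Coordinates are on mm10.

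Factors of these families bind short DNA motifs through a zinc finger, forkhead, homeobox, nuclear receptor, T-box or similar domain and then recruit activators or repressors of transcription. Several act in muscle, such as Foxk1 in muscle progenitor cells, Nfix in the switch from embryonic to fetal muscle, and Twist2, which restrains myogenic factors. An open region within such a gene may act on that gene or on a neighbour, which accessibility alone cannot distinguish. The family name was checked against gene function as background: Zfpm2 encodes a GATA cofactor and Zfp622 a protein not known as a sequence-specific DNA-binding factor, which left 36 of the 38 genes under the label. Tcf20 shares a symbol with the TCF/LEF factors but encodes a DNA-binding coregulator of another family.

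Promoter sequence was at hand for 25 of the 38 genes in the RefSeq table (GRCm38.p6). Shown are the 250 bases before the annotated start that lay nearest to a listed region, for the 4 genes with the shortest gap between a listed region and such a window, because there the printed bases lie in or beside a region with a listed change. Other members, such as Irf7 and Tcf20, had a listed region nearer to a start but no window in the table as close to it. The Zbtb17 window lay wholly inside a listed region, the Foxa1 and Rara windows lay 26 bases from one, and the Zfp710 window lay 179 bases from one. Capitals mark matches to the letters searched on both strands.
Zbtb17 (chr4:141444423-141444672, plus strand): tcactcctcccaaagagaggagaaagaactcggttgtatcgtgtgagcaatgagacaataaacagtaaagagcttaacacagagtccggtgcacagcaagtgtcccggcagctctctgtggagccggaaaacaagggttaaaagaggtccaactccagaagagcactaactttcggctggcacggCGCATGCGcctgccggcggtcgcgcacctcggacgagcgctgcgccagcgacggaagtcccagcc
Foxa1 (chr12:57546112-57546361, minus strand): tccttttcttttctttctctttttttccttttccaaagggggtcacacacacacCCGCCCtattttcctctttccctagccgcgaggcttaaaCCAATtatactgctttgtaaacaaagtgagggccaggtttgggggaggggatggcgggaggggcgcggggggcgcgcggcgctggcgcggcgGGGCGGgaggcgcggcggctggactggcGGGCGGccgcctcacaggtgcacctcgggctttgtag
Rara (chr11:98939461-98939710, plus strand): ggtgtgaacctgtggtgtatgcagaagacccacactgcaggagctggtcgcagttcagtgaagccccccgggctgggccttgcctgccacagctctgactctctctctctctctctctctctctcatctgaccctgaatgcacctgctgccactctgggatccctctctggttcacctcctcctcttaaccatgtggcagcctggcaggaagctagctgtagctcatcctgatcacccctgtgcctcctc
Zfp710 (chr7:80024564-80024813, plus strand): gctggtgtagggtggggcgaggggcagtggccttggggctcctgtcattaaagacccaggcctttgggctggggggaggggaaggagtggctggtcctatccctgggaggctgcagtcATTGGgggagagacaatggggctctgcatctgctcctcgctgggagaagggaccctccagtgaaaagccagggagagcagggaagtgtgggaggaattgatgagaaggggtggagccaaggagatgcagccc
The Zbtb17 window held 2 overlapping matches to GCATGCG, the core of the motif of the factor NRF1. They are 1 site, the palindrome CGCATGCG read on each strand. Of the 32851 promoter windows of the same length, 3.02% held at least 1 match. The Foxa1 window held 3 matches to the GC box GGGCGG, present in 32.7% of all windows, and 1 to CCAAT, present in 33.8%. CCAAT also matched once in the Zfp710 window. No capitals stand in the Rara window, since it held none of the motifs that are capitalised. Also searched and absent from all 4 windows were the AP-1 motif (TGACTCA or TGAGTCA, 4.46% of windows), the CRE core TGACGT (6.47%), the E-box CACGTG (6.02%) and TATAAA (12.4%). Of the other Sp and Klf letters searched, not capitalised, GGGTGT (13.9% of windows) matched once in the Foxa1 window, overlapping a match to CACCC (52.0% of windows), which also matched once in the Rara and 2 times in the Zfp710 window.

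After 24 h, accessibility rose at 3 member regions, in introns of Foxp1, Nfib and Zfp608, and fell at 0. Higher regions made up 0.0459% and lower regions 0.0568% of the regions tested in this comparison. At Foxp1, which encodes a forkhead repressor, a region of 1233 bp (chromosome 6, 99056473 to 99057705) was 2.15-fold higher, a log2 fold change of 1.10 with SE 0.20 (edgeR adjusted p = 0.0305, from the authors' deposited table). It lies in an intron of up to 59.2 kb within the 597 kb gene and 28.8 kb upstream of the nearest annotated internal start. At Nfib, a nuclear factor I gene, a region of 720 bp (chromosome 4, 82510591 to 82511310) had a log2 fold change of 0.81 with SE 0.16, or 1.76-fold (edgeR adjusted p = 0.0449, from the authors' deposited table). That region is annotated both as intron and as sequence 1 to 5 kb upstream of another start of the gene, in a CpG shore and shelf, the flanks of an island, and the table also attaches it to the transcript Gm11266. In Zfp608, a zinc finger gene, a region of 436 bp (chromosome 18, 54984641 to 54985076) lay 7.73 kb inside the gene and was 1.90-fold higher, a log2 fold change of 0.92 with SE 0.18 (edgeR adjusted p = 0.0495, from the authors' deposited table). The last 2 lie close to the 0.05 limit that sets the list.

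The same Foxp1 and Zfp608 regions were also listed for 24 h against 3 h, where the authors' deposited table gives log2 fold changes of 0.63 (SE 0.19) and 0.72 (SE 0.18) with edgeR adjusted p = 0.484 and 0.383. Both comparisons use the 24 h libraries. Neither region was listed at 3 h. Subtracting the listed values gives a log2 change of 0.47 for Foxp1 and 0.21 for Zfp608 at 3 h. Such sums held exactly, to rounding, in the 3 regions that stand in all lists, none of them at a member.

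**Figure D1:**
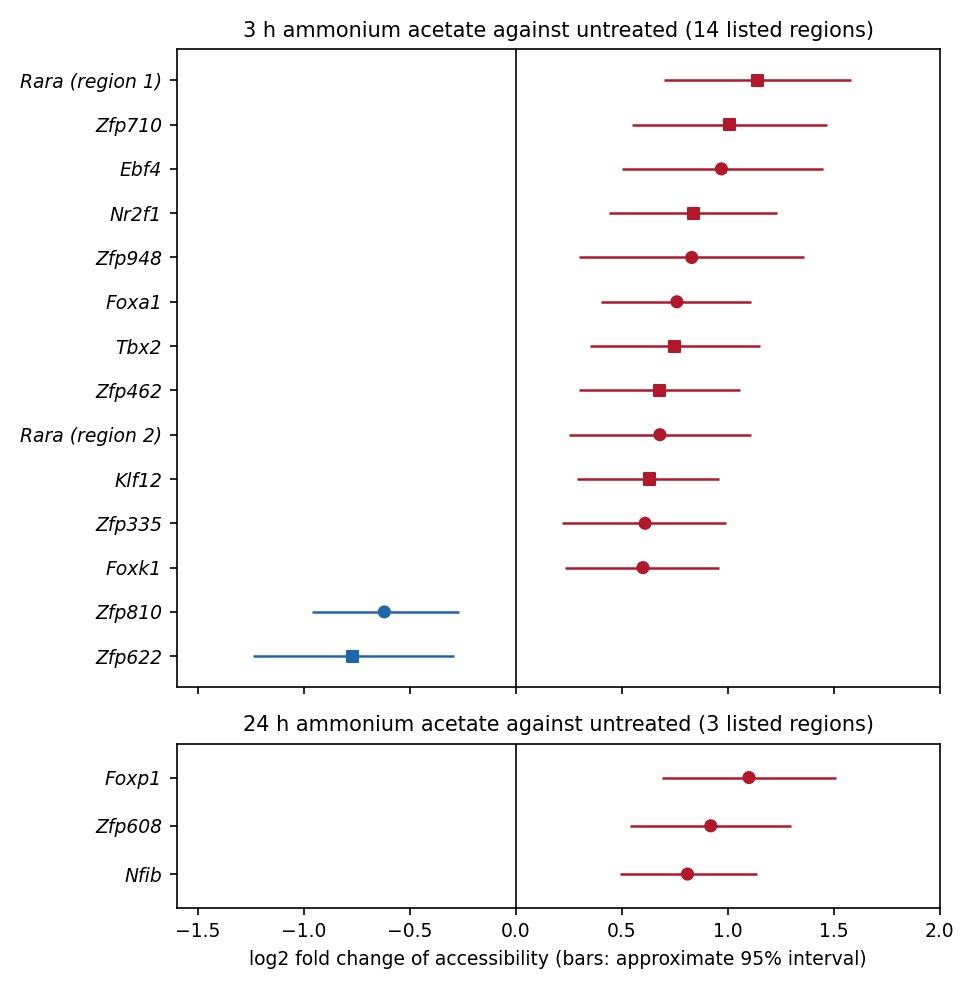
Log2 fold change of accessibility (horizontal axis) at each listed member region for 3 h (upper panel, 14 regions) and 24 h (lower panel, 3 regions) against untreated; points are the listed values, squares are promoter regions, bars are approximate 95% intervals, and red and blue mark positive and negative values. At 3 h 12 of 14 values are positive, from 0.60 to 1.14, and at 24 h all 3 are, from 0.81 to 1.10.

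At 3 h, 14 member regions at 13 genes were listed, 12 with a positive and 2 with a negative log2 fold change, and 0 of them had an edgeR adjusted p below 0.05. Of all regions tested, 0.224% were listed as higher and 0.179% as lower in this comparison. The positive share was 85.7% (95% Clopper-Pearson interval 57.2 to 98.2), beside 55.6% (51.5 to 59.7) of all 588 listed regions and 65.4% (60.1 to 70.4) of the 341 listed at other named genes. Promoters held 7 of the 14 member regions, and at other named genes 71 of 87 promoter regions were positive too. Median absolute log2 fold change was 0.75 among members and 0.75 among all listed regions. By edgeR the adjusted p ranged from 0.338 to 1, and all 14 raw p were at or below 0.00362 in the authors' deposited table.

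Nuclear receptors gave 3 of the positive values at 3 h. Rara encodes retinoic acid receptor alpha, which activates its targets when retinoic acid is bound. The region nearest its internal start (chromosome 11, 98939209 to 98939434; promoter and intron, CpG shore), 390 bp upstream of that start, had a log2 fold change of 1.14 (SE 0.21), or 2.2-fold, the smallest p of any member at 3 h (edgeR adjusted p = 0.338, from the authors' deposited table). A second Rara region, 27.2 kb further along the gene in an intron (98966669 to 98967068) and 2.00 kb past another start, had a log2 fold change of 0.68 with SE 0.21 in the authors' deposited table. Both Rara values pointed the same way. At Nr2f1, which encodes the orphan receptor COUP-TF1, a region at the promoter (chromosome 13, 78200366 to 78200728) showed a log2 fold change of 0.84 with SE 0.19 in the authors' deposited table. The antisense neighbour A830082K12Rik is attached to the same region, so the gene concerned is uncertain.

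Forkhead genes gave a pair of positive values. Foxa1 encodes a pioneer factor known from endoderm, and the region of 1075 bp over its first exon, 5' UTR and intron (chromosome 12, 57545011 to 57546085; CpG island) had a log2 fold change of 0.76 with SE 0.17 in the authors' deposited table. This is the region beside the Foxa1 window printed above. Foxk1 is a forkhead gene active in muscle progenitors, and a region in its intron, 50.9 kb from the start (chromosome 5, 142451923 to 142452812), had a log2 fold change of 0.60 with SE 0.18 in the authors' deposited table. It was the 1 positive region of the 12 that lay more than 5 kb from a start.

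The T-box, Ebf and Klf families had 1 listed region each at 3 h, all with a positive value. Tbx2 encodes a T-box repressor, and its promoter and first exon region of 1399 bp in a CpG island (chromosome 11, 85832155 to 85833553), shared with the neighbour 2610027K06Rik, had a log2 fold change of 0.75 with SE 0.19 in the authors' deposited table. Ebf4, of the early B cell factor family, had a region 1.47 kb upstream of a start (chromosome 2, 130293408 to 130293899) with a log2 fold change of 0.97 and SE 0.23 in the authors' deposited table. Klf12 encodes a Kruppel-like repressor, and its CpG island promoter region of 1853 bp (chromosome 14, 100284342 to 100286194) had a log2 fold change of 0.63 with SE 0.16 in the authors' deposited table. It was the only member of the Klf names left in the 3 h list, Klf2 and Klf4 being left out by the rule.

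Zinc finger genes named Zfp held the remaining 6 regions at 3 h, 4 positive and the 2 negative ones. Zfp710 had the largest value of the 6, with a log2 fold change of 1.01 (SE 0.22), or 2.02-fold, at a CpG shore 569 bp upstream of its start (chromosome 7, 80024106 to 80024384) in the authors' deposited table. Zfp462, whose product acts in chromatin regulation of stem cells, had a log2 fold change of 0.68 with SE 0.18 at its CpG island promoter (chromosome 4, 54944853 to 54945521) in the authors' deposited table. Zfp335 had 0.61 (SE 0.18) in an intron 1.99 kb past a start, and Zfp948 had 0.83 (SE 0.25) in an intron 893 bp past its start, both as log2 fold changes listed in the authors' deposited table. Negative log2 fold changes stood at Zfp622, -0.77 (SE 0.23) at its promoter, and Zfp810, -0.62 (SE 0.17) 2.00 kb upstream, in the authors' deposited table. Zfp948 has 12 and Zfp810 has 4 other Zfp genes within 500 kb, and reads shared between such copies could have been counted at either, so these values are uncertain.

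Between 3 h and 24 h, 30 member regions at 26 genes were listed, 14 with a positive log2 fold change (higher at 24 h) and 16 with a negative one. Listed higher regions were 0.475% and lower ones 0.385% of those tested. All 30 had a raw p of at most 0.00448, and 0 had an edgeR adjusted p below 0.05 or below 0.25 (0.323 to 0.514 in the authors' deposited table). The positive share was 46.7% (28.3 to 65.7), beside 55.2% (52.4 to 58.0) of all 1256 listed regions and 46.5% (42.8 to 50.2) of the 718 at other named genes. Median absolute log2 fold change was 0.71 for members and 0.80 for all listed regions.

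**Figure D2:**
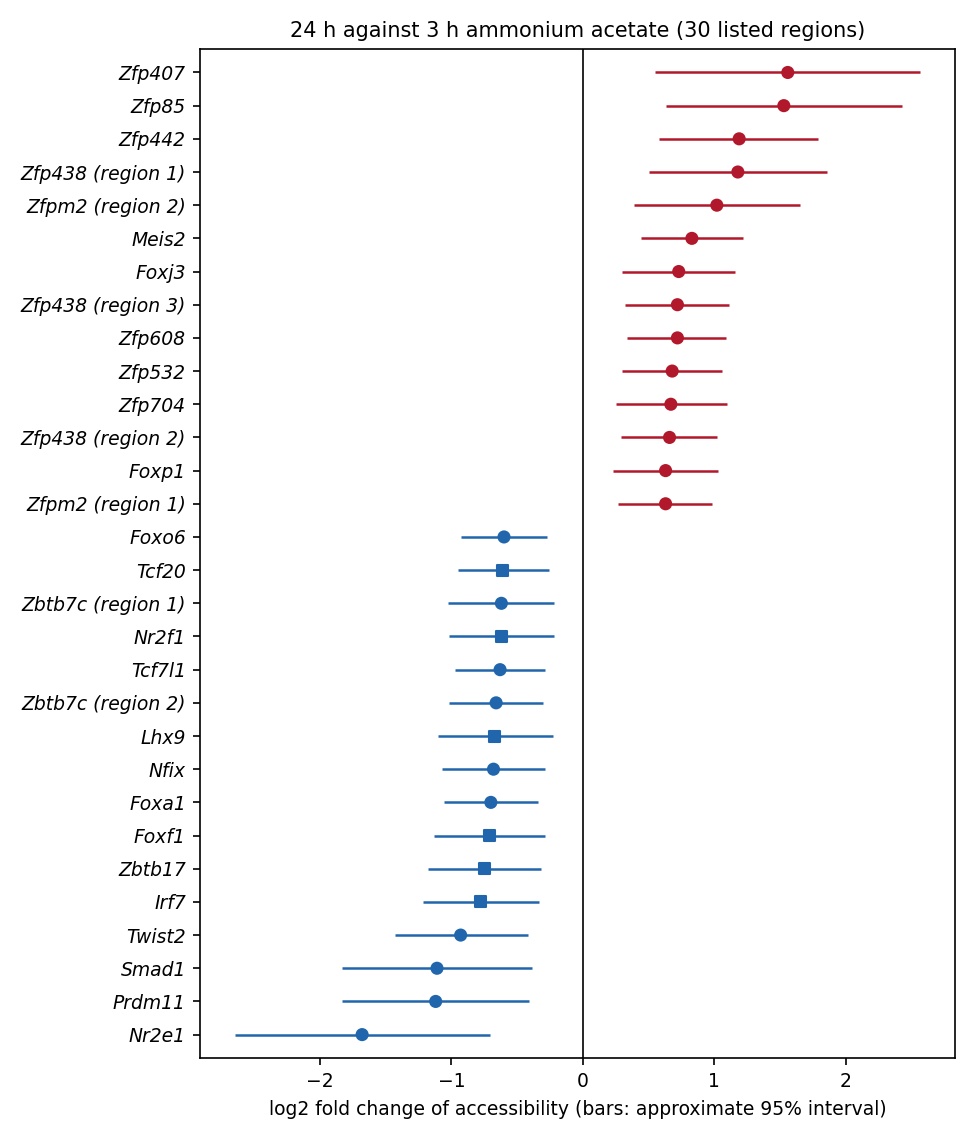
Log2 fold change of accessibility for 24 h against 3 h (horizontal axis) at the 30 listed member regions; points are the listed values, squares are regions at the member's own promoter, bars are approximate 95% intervals, and genes with several regions are numbered along the chromosome. The 14 positive values run from 0.63 to 1.56 and the 16 negative ones from -1.68 to -0.60, and every square lies on the negative side.

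In this comparison all 11 regions at the 8 genes named Zfp had a positive log2 fold change, whereas 3 of the 19 regions at other members did. This split was noticed in the data and was not tested; at 3 h the Zfp names held both signs. The Zfp values ranged from 0.63 to 1.56 with a median of 0.72, and 10 of the 11 regions were annotated as intron and nothing else in the gene. Zfp438 had 3 intronic regions on chromosome 18, separated by 44.7 and 50.9 kb, with log2 fold changes of 1.18 (SE 0.33), 0.66 (SE 0.18) and 0.72 (SE 0.19) along the chromosome in the authors' deposited table. Zfpm2, the cofactor gene also known as Fog2, had regions 170 and 179 kb past the start (chromosome 15), with log2 fold changes of 0.63 (SE 0.17) and 1.02 (SE 0.30) in the authors' deposited table. Where a gene had several regions their signs were the same.

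Among the remaining Zfp genes, Zfp442 had a log2 fold change of 1.19 (SE 0.29) in an intron 12.2 kb from its start (chromosome 2, 150439081 to 150439608) in the authors' deposited table. Zfp532, whose human counterpart is a fusion partner of NUTM1 in carcinoma, had 0.68 (SE 0.18) and Zfp704 had 0.67 (SE 0.20), both log2 fold changes in introns, listed in the authors' deposited table. The highest values stood at weakly covered regions: Zfp407 had a log2 fold change of 1.56 (SE 0.49) at a mean log2 CPM (a depth-scaled read count) of -0.16, and Zfp85 had 1.53 (SE 0.43) at 0.36, in the authors' deposited table. The median of mean log2 CPM was 2.67 for members and 2.34 for the list. The Zfp438 region with the log2 fold change of 1.18 was also weakly covered, at 0.62. Zfp85 has 18 other Zfp genes within 500 kb and Zfp442 has 3, with the same limit on shared reads as above.

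Zbtb genes, which pair zinc fingers with a BTB domain, had 3 listed regions, all with negative values. Zbtb17 encodes MIZ1, a partner of MYC, and the region of 1285 bp over its promoter, first exon and CpG island (chromosome 4, 141444337 to 141445621) had a log2 fold change of -0.75 with SE 0.20 in the authors' deposited table. It covers the window printed above that holds GCATGCG. Zbtb7c had a pair of intronic regions 180 kb apart on chromosome 18, with log2 fold changes of -0.62 (SE 0.20) and -0.66 (SE 0.18) in the authors' deposited table. Prdm11, a PR domain gene, had a log2 fold change of -1.12 (SE 0.34) in an intron that holds the promoter of 4631405J19Rik in the authors' deposited table. That Prdm11 region had a mean log2 CPM of 1.18, below the median of the members.

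Forkhead genes were divided in 24 h against 3 h. Besides Foxp1, Foxj3, which activates Mef2c in muscle, had a positive log2 fold change of 0.73 (SE 0.21) in an intron 11.3 kb from its start in the authors' deposited table. Negative log2 fold changes stood at Foxf1, -0.71 (SE 0.20), Foxa1, -0.70 (SE 0.17), and Foxo6, -0.60 (SE 0.16), in the authors' deposited table. The Foxf1 region covers a CpG island and the promoters of Foxf1 and of the noncoding RNA gene Fendrr beside it (chromosome 8, 121083370 to 121084688). Which of these genes is concerned is uncertain. The table also attaches Galnt2 to the region, but the RefSeq annotation places no part of Galnt2 within 5 kb of it. Foxo6, a FoxO factor of insulin signalling, had its region in an intron 15.0 kb from the start.

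Among the members, homeobox genes gave 1 value of each sign. Homeobox genes outside the rule, such as Pax7 given below, are not counted here. Meis2, a cofactor of Hox proteins, had the smallest p of the members in this comparison, with a log2 fold change of 0.83 (SE 0.19) in an intron 93.0 kb from the nearest start (chromosome 2, 115971310 to 115971954; edgeR adjusted p = 0.323, from the authors' deposited table). Lhx9, a LIM homeobox gene, had -0.67 (SE 0.21) at a promoter in a CpG island (chromosome 1, 138843324 to 138843915), as a log2 fold change listed in the authors' deposited table. Nuclear receptors were negative at both listed genes: for the same Nr2f1 promoter the log2 fold change was -0.62 (SE 0.19), and for Nr2e1, known from neural stem cells, it was -1.68 (SE 0.47) in its last exon and 3' UTR, in the authors' deposited table. The Nr2e1 value was the most negative of all members and came from a region with a mean log2 CPM of -0.08, near the bottom of the covered range.

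The remaining 6 listed regions in 24 h against 3 h, at genes of different families, had negative values. Smad1, an effector of BMP signalling, had a log2 fold change of -1.11 (SE 0.35) in an intron, and Tcf7l1, a TCF/LEF factor of the Wnt pathway, had -0.63 (SE 0.16), in the authors' deposited table. Coverage at the Smad1 region was low, with a mean log2 CPM of 0.92. Irf7, which drives type I interferon genes, had -0.78 (SE 0.21) at its promoter and first exon (chromosome 7, 141265105 to 141265792), and Tcf20 had -0.61 (SE 0.17) at its CpG island promoter (chromosome 15, 82987326 to 82988303), both log2 fold changes listed in the authors' deposited table. Twist2, a bHLH repressor of myogenic genes, had a log2 fold change of -0.93 (SE 0.24) in an intron 18.5 kb from its start (chromosome 1, 91819770 to 91820111) in the authors' deposited table. Nfix, the nuclear factor I gene of fetal muscle, had -0.68 (SE 0.19) in an intron (chromosome 8, 84712030 to 84713050), as a log2 fold change listed in the authors' deposited table. Its relative Nfib had the positive value at 24 h against untreated given above, at a different gene and in another comparison.

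Foxa1 and Nr2f1 were the members listed both at 3 h and in 24 h against 3 h. In the authors' deposited table the Foxa1 region had log2 fold changes of 0.76 and -0.70, and the Nr2f1 region 0.84 and -0.62, in these comparisons. Both values rest on the 3 h libraries, with opposite sign. Added up, they leave a log2 change of 0.06 at Foxa1 and 0.22 at Nr2f1 at 24 h against untreated, where neither was listed. Besides these 2 genes and Foxp1 and Zfp608, the other 34 stood in 1 list each.

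**Figure D3:**
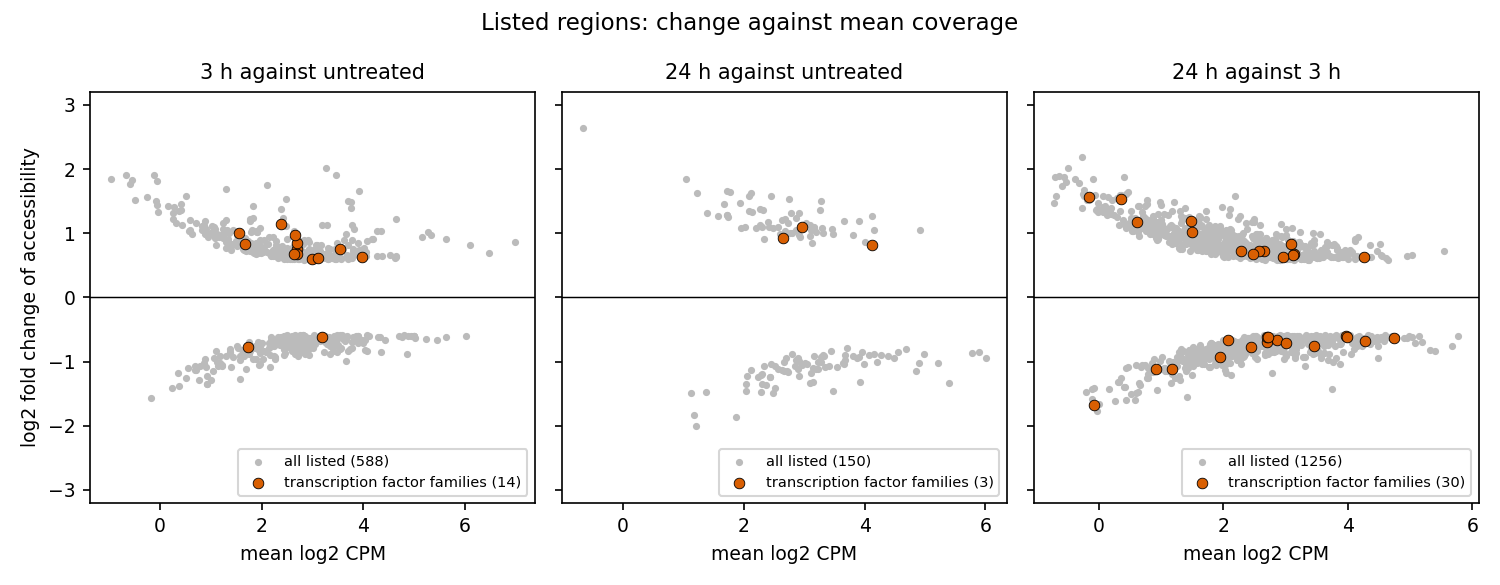
Log2 fold change (vertical axis) against mean log2 CPM (horizontal axis) for every listed region (grey) and for member regions (orange) in the 3 comparisons. The empty bands around 0 come from the limits that set the lists, on fold at left and right and on adjusted p in the middle; member regions at 3 h lie between mean log2 CPM 1.55 and 3.98, and in 24 h against 3 h between -0.16 and 4.75.

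Promoters held 7 of the 14 regions, 6 positive and 1 negative (50%, 23.0 to 77.0), against 16.8% (13.9 to 20.1) of all listed regions and 25.5% (21.0 to 30.5) of those at other named genes. CpG islands held 4 and CpG shores 10 of the 14, beside 4.93% and 15.1% of all listed regions and 6.45% and 21.7% of those at other named genes. At 3 h positive values also prevailed in these classes at other named genes. They stood at 71 of 87 promoter, 21 of 22 CpG island and 62 of 74 CpG shore regions. In 24 h against 3 h, promoters held 7 of 30 (23.3%, 9.93 to 42.3), close to the 22.0% (19.0 to 25.2) of regions at other named genes and above the 14% of all listed regions, many of which are intergenic. All 7 were negative, and at other named genes 127 of 158 promoter regions were negative too. 1 of the 7, at Prdm11, is the promoter of 4631405J19Rik and not of the member. CpG islands held 5 regions in that comparison, also all negative, as were 67 of 68 at other named genes. Of the 14 positive regions in that comparison, 13 lay in introns alone and 1 upstream of Zfp85. Intergenic sequence carries no gene symbol in most of the table, so its low share among members, 0 of 14 at 3 h beside 35.5%, follows from the rule. No test of these shares was run.

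**Figure D4:**
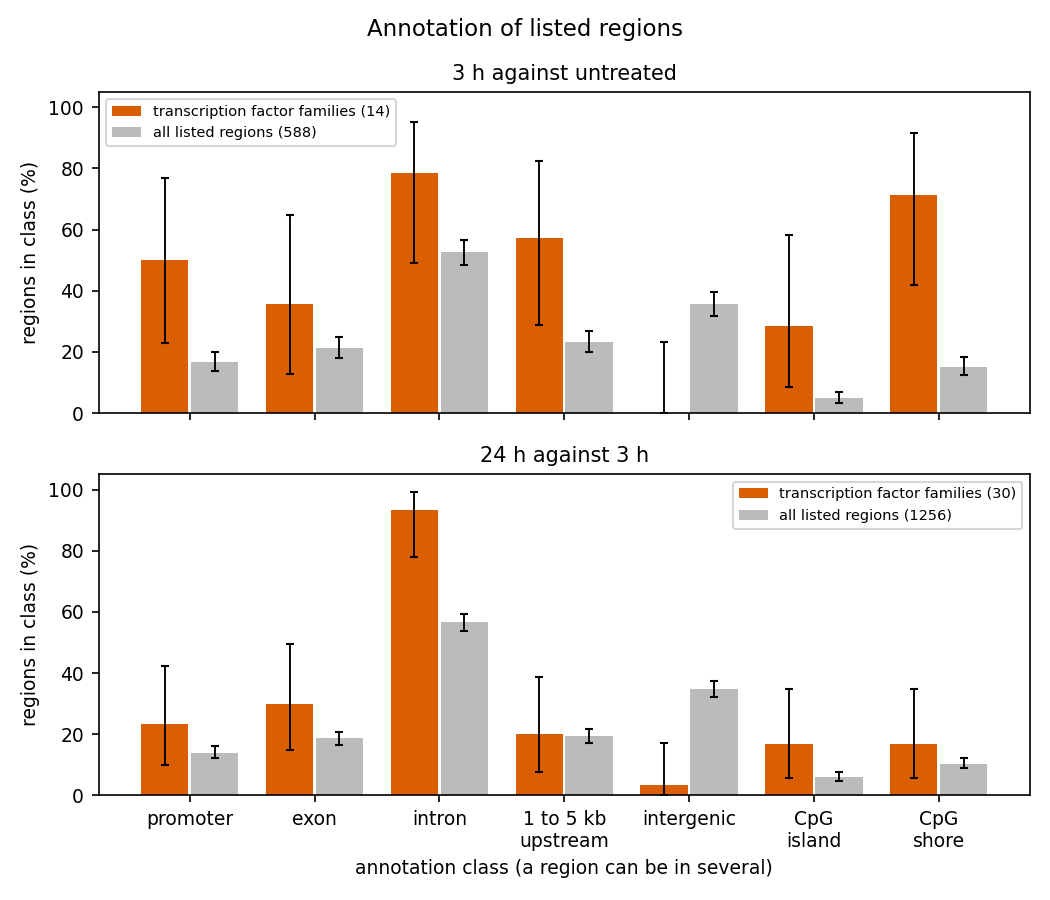
Percent of listed regions in each annotation class (vertical axis) for member regions (orange) and all listed regions (grey), for 3 h against untreated (upper) and 24 h against 3 h (lower), with 95% Clopper-Pearson intervals that cover counting error only. Promoters hold 50% of member regions at 3 h and 23.3% in 24 h against 3 h; the intervals of the members are wide, from 23.0 to 77.0 and from 9.93 to 42.3.

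Positive member regions at 3 h lay a median 0.69 kb from the nearest annotated start (0.139 to 50.9), and 11 of 12 lay within 5 kb (91.7%, 61.5 to 99.8), beside 57.0% (50.2 to 63.5) of the 223 positive regions at other named genes. In 24 h against 3 h the median was 47.5 kb for the 14 positive regions (4.98 to 179) and 15.5 kb for the 16 negative ones (0.025 to 259), of which 7 lay within 5 kb. Positive regions within 5 kb were 1 of 14 among members (7.14%, 0.181 to 33.9) and 21.3% (17.0 to 26) of 334 at other named genes, and negative ones were 43.8% (19.8 to 70.1) and 53.1% (48.0 to 58.2). Regions at other named genes thus also lay nearer a start among the positive values at 3 h than among those in 24 h against 3 h, and the difference between members and other genes was not tested. The distance of a member region is to a start of the member gene. For other regions it is to the nearest start of any attached gene, so the shares are not measured alike. These distances are given as a description, since several regions share a gene. By chromosome, 8 of the 30 regions in 24 h against 3 h, at 5 genes (Zfp608, Zfp438, Zfp532, Zfp407 and Zbtb7c), lay on chromosome 18, or 26.7%, beside 3.18% of all 1256 listed regions. Zfp438 holds 3 and Zbtb7c 2 of these 8 regions. Of the 1256 listed regions 34.8% touch intergenic sequence, beside 3.33% of the member regions, so the chromosome shares do not compare like with like. Chromosome 18 was singled out after its values were seen.

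**Figure D5:**
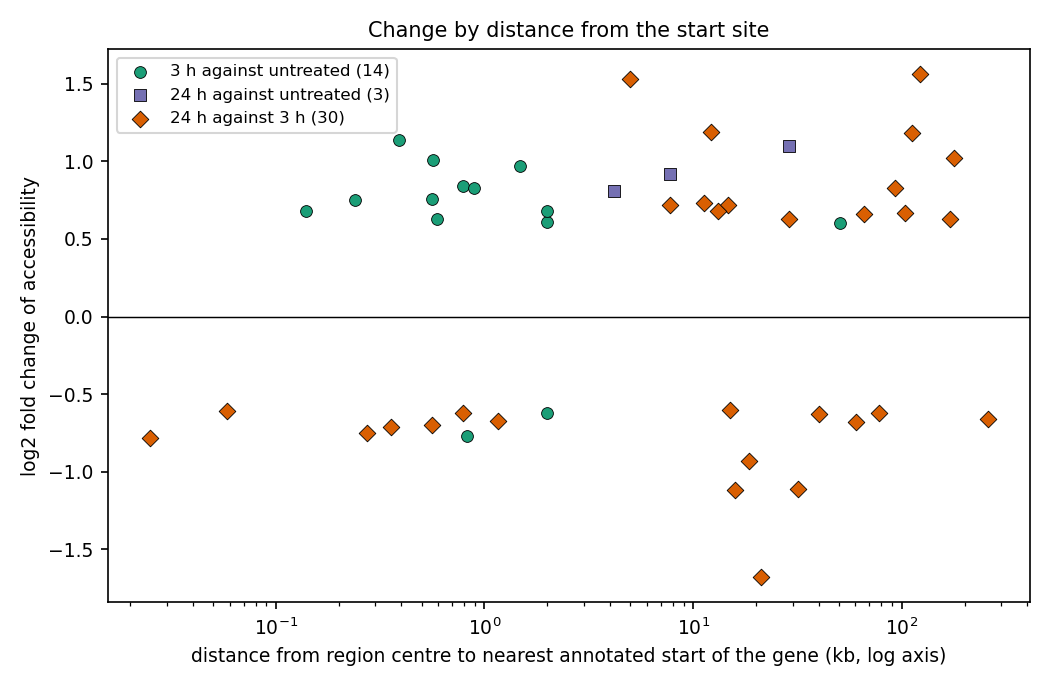
Log2 fold change (vertical axis) of each listed member region against the distance from its centre to the nearest annotated start of the gene (kb, logarithmic axis), with a symbol for each comparison. At 3 h 11 of 12 positive regions lie within 5 kb, beside 57.0% at other named genes, and in 24 h against 3 h 1 of 14 does, beside 21.3%. For the other named genes the distance is to the nearest start of any gene attached to the region.

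Across the mouse annotation, 38 of 713 protein-coding genes with these names had a listed region in any comparison, or 5.33% (3.80 to 7.24), beside 930 of 21184 other protein-coding genes, or 4.39% (4.12 to 4.67). By list the shares were 1.82% and 1.5% at 3 h, 0.421% and 0.307% at 24 h, and 3.65% and 3.09% for 24 h against 3 h. The intervals overlapped in each list, and no test was run. Listed genes were long, with a median of 64.5 kb for members and 60.3 kb for others, against 18 and 17.1 kb for all genes of either set. How many tested regions each gene holds is not known here.

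By family, 14 of 400 Zfp genes, 6 of 46 Fox genes, 3 of 27 nuclear receptor genes, 2 of 41 Zbtb genes, 2 of 14 Tcf genes and 2 of 4 Nfi genes were listed in any comparison. Families with 1 listed gene each were Ebf, Irf, Klf, Lhx, Meis, Prdm, Smad, Tbx and Twist. The other 10 families had 0, among them Hox (39 genes), Sox (19), Stat, Etv and Gata (7 each), Pbx (5), Mef2 and Runx (4 each) and Zeb (2). Mef2 factors drive muscle gene expression, and a gene without a listed region may still have changed below the limits of the lists. Nkx genes with a hyphen in the symbol cannot match the rule. The totals count every protein-coding gene whose symbol matches the rule. Only the listed genes were checked against function, so a total can hold genes that are not factors of the family. The counts of listed genes also go by name. They include Zfpm2 and Zfp622 under Zfp, and Tcf20 under Tcf.

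Other transcription factors, a list of 140 genes outside the rule such as Myod1, Ets1 and E2f1, had 5 genes listed at 3 h (3 regions positive, 2 negative), 0 at 24 h and 8 in 24 h against 3 h (3 positive, 6 negative regions). None of these passed an adjusted p of 0.05 by edgeR. Values at 3 h were 1.02 at E2f6, 0.73 at Zfhx3 and 0.65 at Nfatc2, and -0.69 at Nfyc and -0.66 at Arid5b, as log2 fold changes listed in the authors' deposited table. A list of 53 coregulators had 3 genes at 3 h, 0 at 24 h and 6 in 24 h against 3 h, where 6 of 7 regions were negative. Of the skeletal muscle markers, 0 of 8 had a listed region in any comparison, so these 8 do not bear on the labelled cell type. This says nothing of muscle genes outside the 8. Of 6 fibroblast markers, Postn was listed at 3 h (0.85) and Fn1 (0.74) and the member Twist2 (-0.93) in 24 h against 3 h, as log2 fold changes taken from the authors' deposited table. Of 3 myoblast markers, Dll1 (-0.65) and Pax7 (-0.62), which is also among the 140 factors, were listed in 24 h against 3 h, again as log2 fold changes taken from the authors' deposited table. A shift in the mixture of cells and a change within cells cannot be told apart here.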

How the data were processed

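The labels place 9 ATAC-seq libraries in 3 groups of 3. According to the submitters' processing notes, the authors used Bowtie2 2.3.4.1 on mm10, MACS2 and edgeR. Those notes also name Trim Galore 0.4.5, Picard 2.20.2, cutadapt 1.15, bedtools, SAMtools, FastQC and MultiQC. Not given are the order and settings of these tools, whether reads were shifted for the transposase, and whether libraries were pooled to call peaks. The log2 fold change, the mean log2 CPM, the p-value and its Benjamini-Hochberg adjusted p-value are as the authors deposited them, 1 line per region and annotation, and lines were collapsed to regions. The F statistic is a score deposited by the authors.

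The approximate SE divides the size of the log2 fold change by the root of F, and intervals use the 21.5 degrees of freedom that F and p imply. The number of regions tested was recovered from p, rank and adjusted p, a step checked on simulated data. No model was refitted and no test was run here. Member genes matched the RefSeq table (GRCm38.p6, the assembly of mm10) in 38 of 38 cases. All members are named; genes named from other lists, or added within 5 kb, are not members. Alternatives were another gene assignment, other limits and narrower families. Members and lists were chosen with earlier results of these data known. Software was pandas 2.3.3 and scipy 1.17.1 under Python 3.11.15, with figures from matplotlib 3.10.9.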

Additional observations from a re-analysis of the deposited data

How the results depend on the processing

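Of 52 alternative values, 35 stayed within the limits set for them (counts within 1.5 times, shares within the main interval) and 17 moved. At a common raw p limit of 5.13e-05, 1 member region was left at 3 h (Rara, positive, at a promoter, so both shares became 100%) and 0 in 24 h against 3 h, which leaves no share to give. With at least a 2-fold change the counts were 2 at 3 h, 1 at 24 h and 8 in 24 h against 3 h, and both shares at 3 h became 100%. With an edgeR adjusted p below 0.05 or below 0.25 the counts were 0 at 3 h and 0 in 24 h against 3 h. Without Zfp and Zbtb names 8 regions were left at 3 h, 100% of them positive, and 16 in 24 h against 3 h, 18.8% of them positive. These counts fell because fewer regions or genes were admitted. Leaving out the names that are not sequence-specific factors, assigning genes within 5 kb, and giving each region its foremost class moved none of the values.

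No paired analysis was possible because single libraries have no columns in the deposited files, and no replicate was left out for the same reason. The depth of each library is unknown, and weakly covered regions had the widest errors.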

Other observations

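Assigning each listed region to any gene of these families within 5 kb, in place of the symbols in the table, added 4 genes. At 3 h a promoter region attached to Nab2, Nemp1 and 1700012D01Rik lay 1118 bp from Stat6, a cytokine signalling factor gene, with a log2 fold change of 0.64 (SE 0.18; edgeR adjusted p = 0.961, from the authors' deposited table). The Zfp948 region of the 3 h list lay 4371 bp from Zfp52, a neighbour in the same zinc finger cluster. In 24 h against 3 h an intergenic region 172 bp from Klf3, a Kruppel-like repressor gene, had a log2 fold change of 1.33 (SE 0.39) at a mean log2 CPM of -0.01 (edgeR adjusted p = 0.464, from the authors' deposited table). A promoter region attached to Madd lay 512 bp from Nr1h3, which encodes the oxysterol receptor LXR alpha, and had a log2 fold change of -0.76 (SE 0.23; edgeR adjusted p = 0.473, from the authors' deposited table). None of these passed an adjusted p of 0.05.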
